A study of Drosophila melanogaster with 8 samples.

Results

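The basement membrane genes examined here were Col4a1, vkg, trol, LanA, LanB1, LanB2, SPARC, Ndg, Ppn and Pxn, chosen by name as 10 of the 17717 features of a single-cell RNA-seq matrix of whole Drosophila embryos. All 10 matched exactly 1 row of the matrix. Stage 17 embryos, aged at 25°C to between 17 h and 18.5 h, were dissociated in pools to make each library. Every embryo carried the drivers alrm-gal4 and 25H07-gal4 and the reporters UAS myr::GFP and UAS-redstinger::NLS, so that there was 1 genotype, 1 age and no treatment or control group. The labels listed 8 libraries, from 4 replicates run on 2 sequencing lanes each. The question put to the data was which cell classes of the late embryo held mRNA of each component.

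A basement membrane is a thin sheet of extracellular matrix that lies under epithelia and around muscles, fat body, nerves and the central nervous system. In Drosophila its type IV collagen is built from the chains encoded by Col4a1 and vkg, and its laminin trimers from an alpha chain (LanA encodes 1 of them), the beta chain LanB1 and the gamma chain LanB2. The heparan sulphate proteoglycan perlecan is encoded by trol, and nidogen, which binds laminin and collagen IV, by Ndg. SPARC encodes a collagen-binding glycoprotein, Ppn the secreted glycoprotein papilin, and Pxn peroxidasin, an enzyme that crosslinks collagen IV. Blood cells (hemocytes) and the fat body are known as major sources of these proteins, which travel through the hemolymph to the tissues they cover.

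Col4a1 (FBgn0000299) and vkg (FBgn0016075) lay side by side on chromosome arm 2L and pointed away from each other. In the Ensembl annotation of BDGP6, Col4a1 spanned chr2L:5029609-5037279 on the plus strand and vkg spanned chr2L:5012144-5028191 on the minus strand, with 1417 bases between them. LanB1 (FBgn0261800) was also on 2L, LanA (FBgn0002526), LanB2 (FBgn0267348) and Pxn (FBgn0011828) were on 3L, SPARC (FBgn0026562) and Ppn (FBgn0003137) on 3R, Ndg (FBgn0026403) on 2R and trol (FBgn0284408) on X.

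The barcodes of the matrix carry a suffix from 1 to 8. No source ties a suffix to a sample, so all cells count as 1 pooled sample here, with no test between groups. Suffixes 1 and 5, 2 and 6, 3 and 7, and 4 and 8 had 99.6% or more of their barcodes in common (as a share of the smaller set), and all other combinations 0.42% or less. A barcode found under both suffixes of a pair was summed to 1 cell, and the 4 library pairs served as the measure of spread. Of 38531 distinct cells, 27932 held at least 200 genes and under 20% mitochondrial UMIs (unique molecular identifiers, which count captured mRNA molecules) and were kept, with a median of 4069 UMIs. Levels are given as UMIs of a gene per 1000000 UMIs of a class (CPM), with an exact 95% Poisson interval that covers counting error only. A molecule may have been counted under both suffixes, so these intervals are too narrow, and the range over the library pairs is given beside them.

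The 12 classes were rebuilt from marker genes without use of the members. Hemocyte-like (6564 cells), fat body-like (3105 cells), muscle-like (912 cells), epidermis-like (714 cells) and neuron-like cells (6170 cells) were found by whole-profile assignment, and all of their 5 or 6 check markers were at least 2-fold higher than in all other kept cells. The neuron-like class joined the group grown from seed cells with Eaat2 to that grown from seed cells with elav or nSyb. Glia were taken as cells with a UMI of repo, the general glial transcription factor, and most UMIs of 1 class gene. These were astrocyte-like (238 cells, 3 of 3 check markers), subperineurial-like (419 cells, 4 of 4), peripheral glia-like (477 cells, 5 of 5) and perineurial-like cells (43 cells, 3 of 4), the last of which numbered only 3 to 15 per library pair. Repo cells with wrapper (464 cells, 2 of 3 cortex glia markers) are called by their genes. So are repo cells with Eaat2 (65 cells), which met 3 of 3 ensheathing glia markers but were led by sensory genes such as Gr21a. Cells with at least 2 UMIs of Hand, a transcription factor of heart and visceral mesoderm, numbered 528. Of their 6 check markers tin, H15, mid, tup and bin passed and svp was lower than in all other kept cells (log2 ratio -2.11). In addition Cubn and Amnionless, receptors of endocytic cells, were among their leading genes, so that they are called Hand-positive.

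Library pair 1 stood apart in its make-up: it held 1484 of the fat body-like, 502 of the muscle-like and 526 of the epidermis-like cells, but only 609 of the neuron-like cells. Hemocyte-like cells made up 18.6%, 20.4%, 29.0% and 25.9% of the kept cells of library pairs 1 to 4. The lower and the higher suffix of a pair also gave different shares for the 35234 cells found under both. Col4a1 stood at 5859 CPM under the lower suffix and at 4295 CPM under the higher one, a log2 ratio of 0.45, and Pxn at 285 and 199 CPM, a log2 ratio of 0.52. The remaining members lay between -0.19 (LanA) and 0.16 (SPARC). Thus 2 members passed 0.25 in either direction, as did 20.5% of the 8195 features with at least 1000 UMIs. Past 0.5, where Pxn lay and Col4a1 did not, were 1.43% of these features. The sums of both suffixes were used in every class, although only 35234 of the 38531 distinct cells were found under both. Ratios between genes depended on the suffix. In the same cells vkg and Col4a1 had 280198 and 762793 UMIs under the lower suffix, and 240505 and 519422 under the higher one. The ratios given below are of the summed UMIs, and the part of this shift in their differences between classes was not tested.

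**Figure D1:**
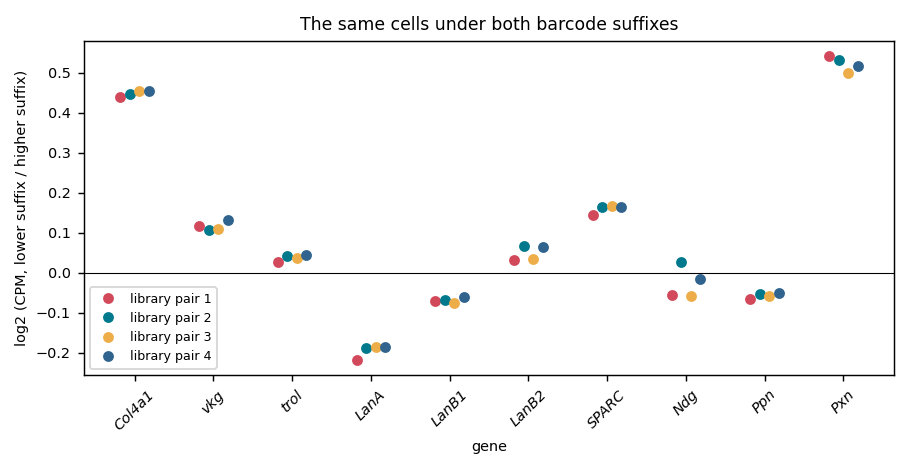
Log2 ratio of CPM (y axis) of each of the 10 genes (x axis) between the lower and the higher barcode suffix of the same cells, with 1 point per library pair. Col4a1 (0.44 to 0.45) and Pxn (0.50 to 0.54) lay above 0 by a like amount in all 4 library pairs.

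Hemocyte-like cells were the main holders of these mRNAs. The 10 genes made up 9.23% of their UMIs (7.22%, 9.74%, 9.57% and 9.68% in library pairs 1 to 4), and in single hemocyte-like cells the 10th, 50th and 90th percentiles of this share were 5.64%, 9.30% and 11.9%. In fat body-like cells the share was 2.04% (1.41% to 2.40% over the pairs), in perineurial-like cells 0.908%, and in each of the other 9 classes between 0.111% and 0.386%. Against all other kept cells, 9 of the 10 genes were at least 2-fold higher in hemocyte-like cells, Ndg being the exception, while 8.41% of the 11354 features with at least 50 UMIs were. The median log2 ratio of the 10 genes was 3.57, and that of all these features was -1.47. Against neuron-like cells the same 9 genes were at least 2-fold higher, beside 16.1% of all features. Hemocyte-like cells held 59.4% to 65.9% of the UMIs of Col4a1, vkg, LanA, LanB1, LanB2 and SPARC, 92.1% of those of Ppn and 93.7% of those of Pxn, but 33.2% of those of trol and 1.23% of those of Ndg. Cell number and mRNA per cell both enter these shares.

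**Figure D2:**
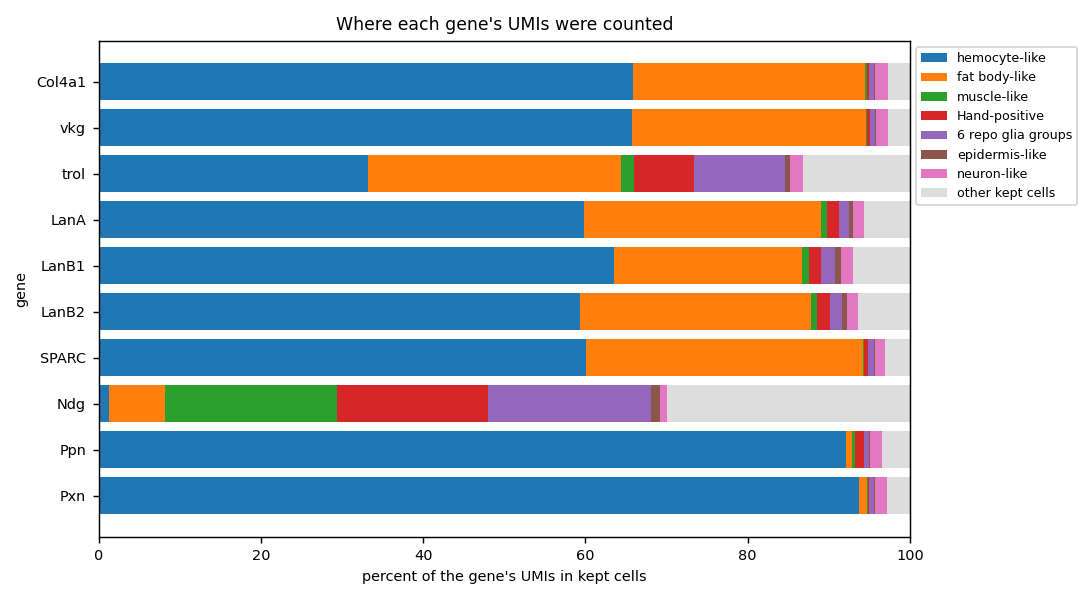
Percent of each gene's UMIs in kept cells (x axis) by class (colours), with the 6 repo glia groups joined and the cells outside the 12 classes in grey. Hemocyte-like and fat body-like cells held most UMIs of the collagens, laminins and SPARC, hemocyte-like cells alone those of Ppn and Pxn, and neither held most of Ndg.

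Levels were also taken in 5125 barcodes with under 200 genes. These are deposited barcodes with a median of 1568 UMIs and no limit on mitochondrial UMIs, so their levels need not be those of free RNA. There Col4a1 stood at 247 CPM (95% interval 237 to 258), SPARC at 108 CPM, Ppn at 54.7 CPM (50.0 to 59.8) and Ndg at 10.5 CPM (8.49 to 12.9). These are not a floor under every class, since pooled Col4a1 lay below 247 CPM in wrapper and repo (236 CPM), epidermis-like (218 CPM) and perineurial-like cells (59.4 CPM). Neurons are not known as a source of collagen IV, yet Col4a1 reached 645 CPM in neuron-like cells, with 357, 489, 729 and 812 CPM in the 4 library pairs. The 5 hemocyte markers NimC1, Hml, Sr-CI, eater and He together stood at 19.5 CPM there, at 1200 CPM in hemocyte-like cells and between 2.20 and 13.6 CPM in each of the other 10 classes. When the cells with a UMI of any of the 5 were left out of the neuron-like class, 5987 of 6170 cells remained, Col4a1 stood at 260 CPM instead of 645, Ppn at 36.2 instead of 193 and trol at 81.2 instead of 123. LanA likewise went from 118 to 53.3 CPM, LanB1 from 130 to 58.4 CPM and LanB2 from 84.6 to 37.7 CPM, whereas Ndg stayed near its level (7.04 and 7.23 CPM). Levels of the members other than Ndg in neuron-like cells were thus moved by few cells. They also differed between the whole-profile groups that make up this class, here before gating. In the group grown from Eaat2 seeds (4379 cells) Col4a1 stood at 341, Ppn at 71.6 and LanA at 56.7 CPM. In the group grown from neuron seeds (2139 cells) they stood at 1044, 356 and 201 CPM. The part of free RNA or joined cells in the neuron-like levels was not tested.

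Both collagen IV chains were highest in hemocyte-like cells and next in fat body-like cells. Col4a1 stood at 19271, 31303, 30706 and 31121 CPM in the 4 library pairs of hemocyte-like cells and at 3748, 8761, 8379 and 8283 CPM in those of fat body-like cells. Every hemocyte-like value lay above every fat body-like value, and both classes lay above all others in every pair. Over neuron-like cells the log2 ratio was 5.49 (95% interval 5.47 to 5.51, and no less than 5.26 in any pair) in hemocyte-like and 3.40 (3.38 to 3.43, 3.35 to 4.16 over the pairs) in fat body-like cells. With each cell thinned to 500 UMIs, a Col4a1 UMI was found in 99.7% of 6439 hemocyte-like (exact Clopper-Pearson 95% interval 99.5 to 99.8), 86.2% of 3029 fat body-like (85.0 to 87.4) and 12.3% of 5958 neuron-like cells (11.5 to 13.2). Before thinning the shares were 99.8%, 97.9% and 46.0%, at median depths of 4157, 7695 and 2797 UMIs. Below them, the pooled levels ran from 645 CPM in neuron-like to 218 CPM in epidermis-like cells with overlapping ranges over the pairs, and neighbours in this order did not differ beyond that spread. Perineurial-like cells were lowest, with 27 UMIs of Col4a1 (59.4 CPM, 39.1 to 86.4).

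For vkg the order was alike. It stood at 7749, 13050, 12522 and 12400 CPM in hemocyte-like cells and at 1647, 3534, 3398 and 3351 CPM in fat body-like cells. The other classes lay between 19.8 CPM (perineurial-like, 9 UMIs) and 241 CPM (neuron-like). With both suffixes summed, there were 0.406 vkg UMIs per Col4a1 UMI in hemocyte-like cells (0.398 to 0.417 over the pairs) and 0.411 in fat body-like cells (0.403 to 0.439). These ranges overlapped. The suffix shift of Col4a1 given above enters this ratio. In the barcodes with under 200 genes the ratio was 0.371 (95% interval 0.342 to 0.403) and in neuron-like cells 0.373 (0.363 to 0.383). Within every pair it was higher in muscle-like (0.444, 0.416 to 0.520) and Hand-positive cells (0.469, 0.437 to 0.564) than in either main class, although the ranges over the pairs touched that of fat body-like cells.

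The 3 laminin chains showed the same leading classes and then a clearer order. LanA stood at 5552, 5550, 5655 and 5564 CPM in hemocyte-like cells and at 1485, 1412, 1507 and 1489 CPM in fat body-like cells. In muscle-like cells it stood at 353, 297, 350 and 376 CPM, and in Hand-positive cells at 306, 256, 339 and 281 CPM. Hemocyte-like and fat body-like values lay apart from all others, while muscle-like and Hand-positive values overlapped. Neuron-like cells lay below both, at 89.8 to 141 CPM, so that the log2 ratios over them were 1.56 for muscle-like (1.32 to 1.73 over the pairs) and 1.32 for Hand-positive cells (1.06 to 1.51). Without cells that held a hemocyte marker they were 2.59 and 2.43. Subperineurial-like (192 CPM, 149 to 252) and peripheral glia-like cells (184 CPM, 155 to 200) came next, and the pooled levels were lowest in astrocyte-like (82.8 CPM), wrapper and repo (78.8 CPM) and Eaat2 and repo cells (65.2 CPM). The low astrocyte-like level rests on the gate. In the whole-profile group grown from alrm seeds (744 cells, 3 of 3 check markers) LanA stood at 148 CPM.

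LanB1 followed LanA, with 5622 to 6361 CPM in hemocyte-like, 1114 to 1260 CPM in fat body-like and 435 to 474 CPM in muscle-like cells. In muscle-like cells all 4 values lay above all 4 Hand-positive values (237 to 373 CPM). This order rests on the gate, as LanB1 stood at 765 CPM in the whole-profile group grown from Hand seeds. LanB2 stood at 3960 to 4121 CPM in hemocyte-like, 962 to 1086 CPM in fat body-like, 249 to 294 CPM in muscle-like and 192 to 300 CPM in Hand-positive cells. Here the muscle-like and Hand-positive ranges overlapped. The log2 ratios of muscle-like over neuron-like cells were 1.82 for LanB1 (1.58 to 2.11 over the pairs) and 1.64 for LanB2 (1.38 to 2.26), and 2.91 and 2.70 without cells that held a hemocyte marker.

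The balance between the chains differed between the leading classes. There were 1.50 LanB1 UMIs per LanB2 UMI in hemocyte-like cells (1.42, 1.54, 1.53 and 1.49 in the 4 library pairs) and 1.14 in fat body-like cells (1.16, 1.16, 1.15 and 1.11). The 4 hemocyte-like values all lay above the 4 fat body-like values. Muscle-like cells had a ratio of 1.75 (1.55 to 1.90), above the whole hemocyte-like range, and wrapper and repo cells 1.88 (1.76 to 1.97). For LanA per LanB2 the hemocyte-like value of 1.38 (1.35 to 1.40) and the fat body-like value of 1.41 (1.37 to 1.47) overlapped over the pairs. Epidermis-like (1.06, 0.864 to 1.24) and wrapper and repo cells (0.921, 0.865 to 1.01) had fewer LanA UMIs per LanB2 UMI, below both of these ranges.

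**Figure D3:**
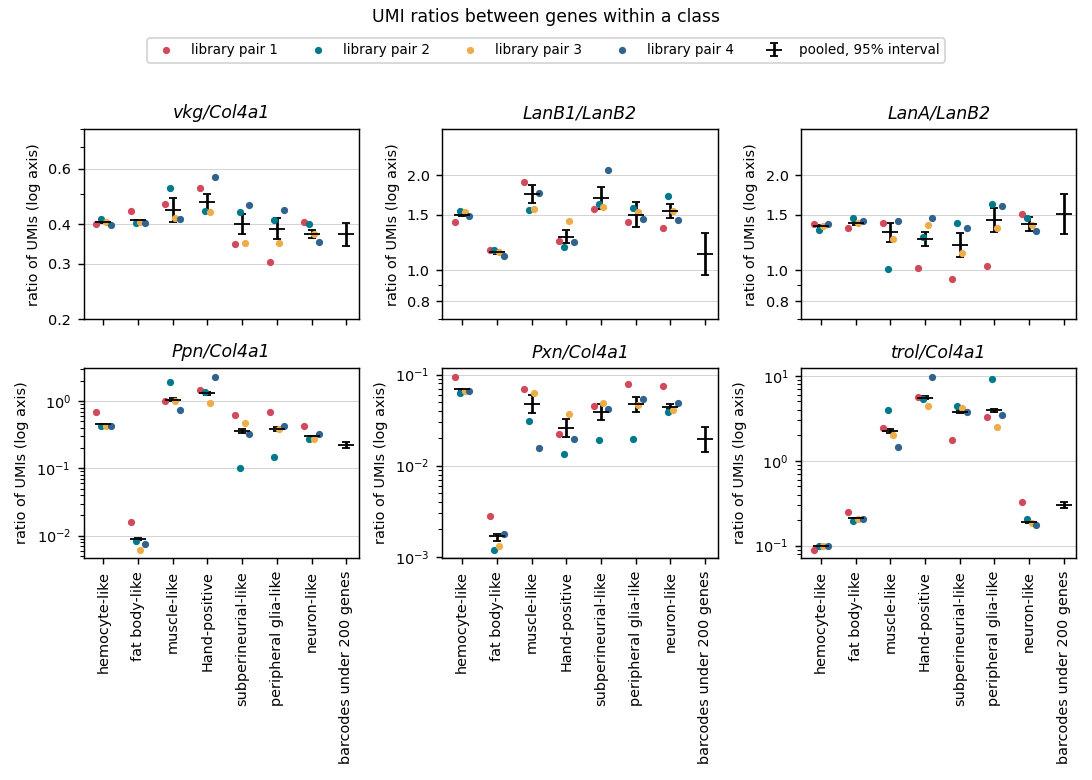
UMI ratios between genes (y axes, log scale) in 7 classes and in barcodes with under 200 genes (x axis). Black bars are pooled values with exact 95% intervals and points are library pairs. The vkg to Col4a1 ratio was alike in hemocyte-like (0.406) and fat body-like cells (0.411), while Ppn to Col4a1 was 0.461 and 0.0088.

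SPARC was distributed like the collagens. It stood at 13286, 18635, 18025 and 19260 CPM in hemocyte-like cells and at 3898, 6341, 6068 and 6468 CPM in fat body-like cells, and no fat body-like value reached a hemocyte-like one. The pooled levels of all other classes lay between 142 and 350 CPM, with neuron-like cells (350 CPM) and peripheral glia-like cells (343 CPM) overlapping at the top. Without cells that held a hemocyte marker this order changed. Neuron-like cells then stood at 145 CPM and peripheral glia-like cells at 197 CPM, below muscle-like (221 CPM) and Hand-positive cells (255 CPM). There were 0.611 SPARC UMIs per Col4a1 UMI in hemocyte-like cells (0.587 to 0.689 over the pairs) and 0.799 in fat body-like cells (0.724 to 1.04). Within every pair the fat body-like ratio was the higher one.

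Ppn and Pxn set hemocyte-like cells apart from fat body-like cells. Ppn stood at 13161, 13299, 13343 and 13484 CPM in hemocyte-like cells but at 59.1, 72.6, 52.2 and 63.3 CPM in fat body-like cells. Pxn stood at 1832, 1965, 2041 and 2041 CPM in hemocyte-like cells and at 10.4, 10.3, 10.6 and 14.6 CPM in fat body-like cells. Pooled, fat body-like cells stood at 60.2 CPM of Ppn and 11.4 CPM of Pxn, neuron-like cells at 193 and 28.7 CPM and the barcodes with under 200 genes at 54.7 and 4.80 CPM. Without cells that held a hemocyte marker, Ppn stood at 20.5 CPM in fat body-like and 36.2 CPM in neuron-like cells and Pxn at 5.85 and 5.60 CPM, so that the order of these low values was not fixed, while Col4a1 stayed at 6742 CPM in the same fat body-like cells. There were 0.461 Ppn UMIs per Col4a1 UMI in hemocyte-like cells (0.425 to 0.683 over the pairs) and 0.0088 in fat body-like cells (0.0062 to 0.0158). For Pxn these ratios were 0.0687 (0.0628 to 0.0951) and 0.0017 (0.0012 to 0.0028). Without the fat body-like cells that held a hemocyte marker, 3000 cells remained and the ratios were 0.0030 for Ppn and 0.0009 for Pxn.

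Ppn was also present in muscle-like cells (190, 641, 425 and 416 CPM) and Hand-positive cells (244, 322, 396 and 344 CPM). Neuron-like cells stood at 153, 135, 202 and 261 CPM, and the muscle-like value was the higher one in every pair. Without cells that held a hemocyte marker, Ppn stood at 269 CPM in muscle-like, 322 CPM in Hand-positive and 36.2 CPM in neuron-like cells, so that the log2 ratios over neuron-like cells went from 0.80 to 2.89 and from 0.75 to 3.15. At 500 UMIs, a Ppn UMI was found in 12.4% of 837 muscle-like (10.3 to 14.9), 12.7% of 520 Hand-positive (9.95 to 15.9) and 3.51% of 5958 neuron-like cells (3.06 to 4.01). Unthinned, these shares were 28.2%, 45.3% and 11.4%, at median depths of 2817, 7698 and 2797 UMIs. For Pxn no class besides hemocyte-like cells exceeded the 28.7 CPM of neuron-like cells, and perineurial-like cells had no UMI (95% interval up to 8.11 CPM).

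Perlecan mRNA had another order of classes, led by perineurial glia, the outer cell layer of the blood-brain barrier. In the 43 perineurial-like cells trol stood at 12201, 7493, 8070 and 9353 CPM, with 3823 UMIs in all. In hemocyte-like cells it stood at 1732, 3140, 3065 and 3053 CPM. All 4 perineurial-like values lay above all hemocyte-like ones, although the first rested on 3 cells. The gene was 2-fold or more higher in perineurial-like than in all other kept cells (log2 ratio 3.06), and was the only 1 of the 10 genes to be so, beside 18.6% of all features. This call rests on the gate by repo and CG4797: in the whole-profile group planned first for this class, which had 0 of 4 check markers and was led by cuticle genes, the log2 ratio of trol was -2.51 and no gene was called. The whole-profile group grown from DAT seeds (860 cells) met 5 of 5 peripheral glia check markers. Its leading genes included CG4797, Mdr49, Pcyt2, CG18417, CG4462 and CG5687, which also led the perineurial-like cells, and trol stood at 3324 CPM there. In the 43 gated cells the log2 ratio of trol over neuron-like cells was 6.09 (95% interval 6.03 to 6.16, 5.90 to 6.71 over the pairs). Of these cells 83.7% (69.3 to 93.2) had a trol UMI at 500 UMIs, against 4.62% of neuron-like cells (4.10 to 5.18). Unthinned, these shares were 90.7% and 16.2%, at median depths of 8551 and 2797 UMIs. The collagens were not high in the same cells: there were 142 trol UMIs per Col4a1 UMI (95% interval 97.2 to 215), against 0.0982 in hemocyte-like cells.

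Within each pair the next classes lay below hemocyte-like cells, and their ranges over the pairs overlapped. Subperineurial-like cells, the barrier layer sealed by septate junctions, stood at 683, 1686, 2037 and 1785 CPM, and peripheral glia-like cells, which wrap peripheral nerves, at 1034, 1802, 1489 and 1543 CPM. Fat body-like cells stood at 934, 1733, 1709 and 1703 CPM and Hand-positive cells at 921, 1262, 1893 and 1452 CPM. Muscle-like (711 CPM, 451 to 1332) and astrocyte-like cells (611 CPM, 499 to 907) were next and overlapped, the muscle-like range also with those above it. The lowest classes were Eaat2 and repo (340 CPM), wrapper and repo (189 CPM), epidermis-like (159 CPM) and neuron-like cells (123 CPM). Over neuron-like cells the log2 ratios were 3.76 in subperineurial-like (2.55 to 4.07 over the pairs), 3.67 in peripheral glia-like (3.15 to 4.17) and 2.31 in astrocyte-like cells (1.85 to 2.75). The astrocyte-like value rests on the gate. In the whole-profile group grown from alrm seeds (744 cells, 3 of 3 check markers) trol stood at 156 CPM, below the 185 CPM of the group grown from neuron seeds. Without cells that held a hemocyte marker, trol stayed at 1691 CPM in subperineurial-like and 1571 CPM in peripheral glia-like cells, while Col4a1 there went from 439 to 235 CPM and from 398 to 125 CPM. None of the 10 genes was 2-fold higher in subperineurial-like, peripheral glia-like, astrocyte-like, or Eaat2 and repo cells than in all other kept cells, where 12.2%, 10.6%, 16.1% and 24.2% of all features were. With gate genes alone, without repo, 9 genes were called in cells gated by moody and 1 in cells gated by DAT. With the whole-profile groups 1 was called in the group grown from DAT seeds. The shares of all features under these alternatives are not given, so these counts are not read as a trait of the genes.

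Nidogen mRNA was low where the other components were high. Ndg stood at 18.4, 8.56, 11.4 and 7.83 CPM in hemocyte-like cells and at 16.0, 40.6, 44.1 and 42.5 CPM in fat body-like cells. It was highest in muscle-like cells, at 891, 1135, 1008 and 1160 CPM. Wrapper and repo cells stood at 1154, 461, 635 and 495 CPM and Hand-positive cells at 297, 334, 357 and 477 CPM. Muscle-like values lay above all Hand-positive values, while the wrapper and repo range overlapped both. Against all other kept cells Ndg was 2-fold or more higher in these 3 classes, with log2 ratios of 3.52, 2.68 and 1.97, and was the only 1 of the 10 genes to be so in each, beside 6.02%, 20.1% and 11.0% of all features. The wrapper and repo call was lost with gate genes alone and the Hand-positive call with the whole-profile groups (0 genes each). In the whole-profile group grown from Hand seeds (375 cells, 5 of 6 check markers) Ndg stood at 119 CPM. All members but Ndg stood higher there than in Hand-positive cells. Col4a1 stood at 1503 against 248, LanA at 709 against 296, LanB1 at 765 against 301, SPARC at 1078 against 279 and Ppn at 805 against 326 CPM. The leading genes of this group included ord and zpg. Over neuron-like cells (7.04 CPM, 4.56 to 21.3) the log2 ratios of Ndg were 7.13 in muscle-like (5.37 to 7.97 over the pairs), 6.39 in wrapper and repo (5.74 to 6.75), 5.68 in Hand-positive (3.78 to 6.69) and 3.69 in subperineurial-like cells (2.84 to 4.53).

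The Ndg mRNA was uneven within its classes. With cells thinned to 500 UMIs, a Ndg UMI was found in 18.5% of 837 muscle-like (15.9 to 21.3), 12.4% of 461 wrapper and repo (9.50 to 15.7) and 23.3% of 520 Hand-positive cells (19.7 to 27.1), against 0.47% of neuron-like and 0.40% of hemocyte-like cells. Unthinned, the shares in this order were 37.4%, 25.2%, 61.4%, 2.35% and 3.12%. Muscle-like, wrapper and repo and Hand-positive cells held 21.3%, 16.5% and 18.6% of all Ndg UMIs. In the whole-profile group grown from wrapper cells, 553 cells led by CG8564 with no cortex glia marker raised 2-fold, Ndg stood at 1426 CPM (2836, 1174, 1457 and 1308 in the 4 pairs), above its muscle-like level in every pair. That group has no cell type name here.

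**Figure D4:**
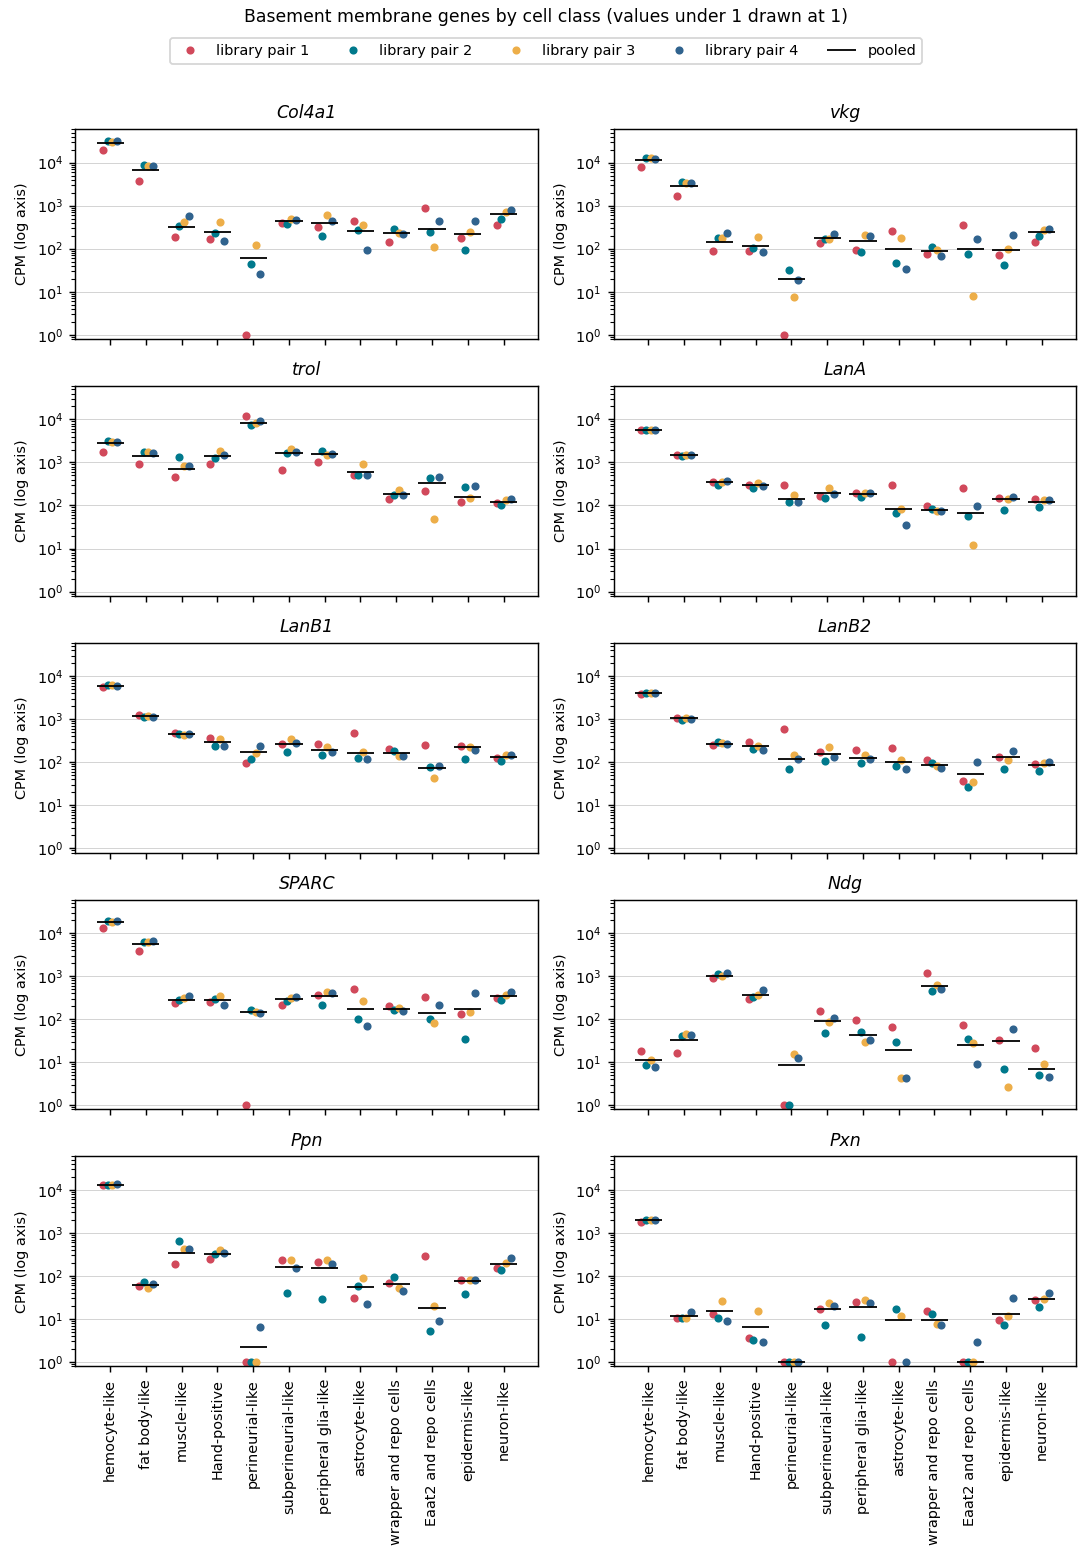
CPM (y axes, log scale) of each gene in the 12 classes (x axis), with 1 point per library pair and a line at the pooled value (values under 1 are drawn at 1). For the collagens, laminins and SPARC, hemocyte-like and fat body-like cells are on top, while trol peaks in perineurial-like cells (8408 CPM) and Ndg in muscle-like cells (990 CPM).

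Read by class, fat body-like cells had no gene 2-fold higher than all other kept cells, a group that holds the hemocytes, where 15.8% of all features were. SPARC came nearest (log2 ratio 0.88). Over neuron-like cells 8 of the 10 genes were 2-fold or more higher in fat body-like cells, all but Ppn and Pxn, beside 23.6% of all features. For Ndg this did not hold in library pair 1 (log2 ratio -0.43), with gate genes alone (-0.38) or with 1 round of assignment (-0.37). Over the same cells 5 of 10 were so in muscle-like cells, beside 20.1% of features, and 5 of 10 in Hand-positive cells, beside 33.1%. The muscle-like count was 10 with gate genes alone and 3 with the whole-profile groups, for which the shares of all features are not given. In both classes the 5 genes were trol, LanA, LanB1, LanB2 and Ndg. The median log2 ratio over neuron-like cells was 3.47 in fat body-like, 1.18 in muscle-like and 0.98 in Hand-positive cells, where the medians of all features were -0.93, -0.77 and 0.02. In epidermis-like and neuron-like cells none of the 10 was 2-fold higher than in all other kept cells, where 9.17% and 25.5% of all features were.

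Library pair 1 was low for the same 4 genes in hemocyte-like and fat body-like cells, namely Col4a1, vkg, trol and SPARC. In hemocyte-like cells of library pair 1, Col4a1 stood at 19271 CPM against 31004 CPM in the other 3 pairs together (log2 ratio -0.69), vkg at 7749 against 12618 (-0.70), trol at 1732 against 3080 (-0.83) and SPARC at 13286 against 18607 (-0.49). LanA (-0.01), LanB2 (-0.04), Ppn (-0.02), LanB1 (-0.13) and Pxn (-0.14) differed far less, and Ndg, low in these cells, stood at 18.4 against 9.44 CPM. In fat body-like cells of the same pair Col4a1 was lower by a log2 ratio of -1.17, vkg by -1.05, trol by -0.88, SPARC by -0.69 and Ndg by -1.41, while LanA (0.01), LanB1 (0.10) and LanB2 (0.07) were level. Past -0.5 there were 3 of the 9 genes with at least 1000 UMIs in hemocyte-like cells, beside 20.2% of 2136 such features, and 5 of 9 in fat body-like cells, beside 12.3% of 3370 such features. Among the other classes, trol was lowest in pair 1 in subperineurial-like, peripheral glia-like, Hand-positive, wrapper and repo and epidermis-like as well as muscle-like cells, but highest in pair 1 in perineurial-like cells (12201 CPM, 3 cells), and pair 1 was not the lowest in astrocyte-like, Eaat2 and repo and neuron-like cells. Of the matrix list described next, some genes were higher and some lower in pair 1, and those given here were chosen after their values were seen. In hemocyte-like cells of pair 1, Plod (lysyl hydroxylase) stood at 3700 against 2188 CPM, Pdi (protein disulphide isomerase) at 2921 against 1463 CPM and PH4alphaEFB (prolyl hydroxylase) at 530 against 273 CPM. In fat body-like cells the same enzymes stood at 1958 against 1369, 2051 against 1155 and 245 against 152 CPM. In hemocyte-like cells Glt stood at 3858 against 8084, Tig at 2773 against 3936, loh at 146 against 836 and Mmp1 at 56.2 against 429 CPM, while in fat body-like cells Glt (2533 against 4070) and Tig (1262 against 1735 CPM) were also lower but loh (113 against 72.8) and Mmp1 (68.6 against 66.4 CPM) were not. Tango1 stood at 79.2 against 63.0 CPM in hemocyte-like and at 46.8 against 56.5 CPM in fat body-like cells. The make-up of pair 1 given above moved with these values, and its part in them was not tested.

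**Figure D5:**
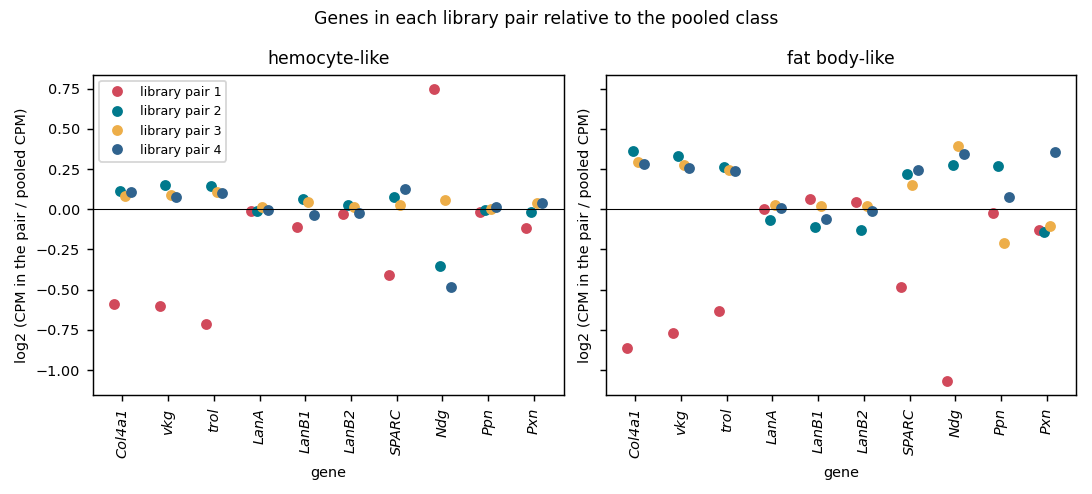
Log2 ratio of each gene's CPM in 1 library pair to its pooled CPM (y axis) for the 10 genes (x axis) in hemocyte-like (left) and fat body-like cells (right). Library pair 1 was low for Col4a1, vkg, trol and SPARC in both classes and level for LanA (-0.01 and 0.01 against the other pairs).

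Hemocyte-like cells with the scavenger receptor Sr-CI, a plasmatocyte gene, (5257 cells) and without a UMI of it (1307 cells, with a median of 2918 against 4401 UMIs) held nearly the same levels of LanA (5588 and 5590 CPM) and Ppn (13362 and 13214 CPM). Col4a1 was lower without Sr-CI in every pair: 18105 against 19969, 26720 against 31688, 25133 against 31244 and 27213 against 31534 CPM. In 87 cells grown from seeds with the crystal cell enzymes PPO1 and PPO2, Col4a1 stood at 122, 143, 1461 and 250 CPM and Ppn at 72.4, 0, 725 and 214 CPM, all below the hemocyte-like ranges. Pxn stood at 262, 169, 321 and 250 CPM there, above every class except hemocyte-like cells. Within the hemocyte-like class, split into 4 equal parts by depth with median UMIs of 2034, 3674, 4657 and 5978, Col4a1 stood at 25782, 29143, 30651 and 28571 CPM.

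Other matrix genes were read from a list of 40, of which 38 were found and 37 held at least 50 UMIs. In hemocyte-like cells 9 of 37 (24.3%, beside 8.41% of all features) were 2-fold or more higher than in all other kept cells, led by Tig (Tiggrin, an integrin ligand, 3732 CPM, log2 ratio 3.03), Glt (Glutactin, 7344 CPM, 2.90) and Plod (2453 CPM, 2.44). In fat body-like cells 8 were (21.6%, beside 15.8%), led by Plod (1571 CPM, 1.83), Pdi (1462 CPM, 1.62) and Glt (3543 CPM, 1.52). In muscle-like cells 7 were (18.9%, beside 6.02%), led by the integrin subunit gene if (215 CPM, 2.47), Tsp (thrombospondin, a ligand at muscle attachments, 80.2 CPM, 2.38) and kon (kon-tiki, a transmembrane protein of muscle attachment, 119 CPM, 2.32). In perineurial-like cells 15 were (40.5%, beside 18.6%), led by Timp (inhibitor of matrix metalloproteases, 240 CPM, 3.40), if (330 CPM, 2.97) and prc (pericardin, a collagen-like matrix protein, 1889 CPM, 2.42). No minimum of UMIs within the class was set for these counts or for the shares of all features. Thus ItgaPS4, with 0 UMIs in perineurial-like cells, and Loxl2, with 2 UMIs, were among the 15. In Eaat2 and repo cells ItgaPS4 was counted on 1 UMI.

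In peripheral glia-like cells 8 of 37 were 2-fold or more higher (21.6%, beside 10.6% of all features), led by the matrix protease AdamTS-A (265 CPM, 2.97), the glypican dlp (229 CPM, 2.27) and prc (1046 CPM, 1.64). In subperineurial-like cells 15 were (40.5%, beside 12.2%), led by the laminin receptor Dg (dystroglycan, 558 CPM, 2.09), Timp (88.8 CPM, 2.05) and kon (2.01). In Hand-positive cells 9 were (24.3%, beside 11.0%), led by prc (1366 CPM, 2.20), kon (86.1 CPM, 1.93) and the integrin subunit gene scb (71.6 CPM, 1.89). Wrapper and repo cells had 14 (37.8%, beside 20.1%), and epidermis-like cells 4 (10.8%, beside 9.17%). Eaat2 and repo cells with 7 (18.9%, beside 24.2%), neuron-like cells with 6 (16.2%, beside 25.5%) and astrocyte-like cells with 2 (5.41%, beside 16.1%) lay below the share of all features. In epidermis-like cells stl (stall, a protease of the AdamTS family, 62.4 CPM, 3.81), Tsp (117 CPM, 3.17) and scb (48.7 CPM, 1.20) led, and in neuron-like cells the collagen receptor kinase gene Ddr (44.9 CPM, 2.68), the syndecan gene Sdc (1225 CPM, 2.21) and nolo (168 CPM, 2.15).

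Likeness of pattern was measured as Pearson's r of log2 (CPM + 10) over the 12 classes, among 8382 features with at least 500 UMIs. The classes share libraries and the free RNA within them, so r is given as a description. Nearest to Col4a1 was vkg (0.999), then CG1092 (0.990) and CG14629 (0.980), and vkg had the same 3 neighbours in turn. LanA was nearest to LanB2 (0.994), then LanB1 (0.982) and Galk (0.956). SPARC was nearest to NimB5 (0.992), CG31777 (0.991) and Glt (0.987), and Pxn to CG43799 (0.993), firl (0.990) and Ilp4 (0.989). For trol the nearest were CG7453 (0.931), rdog (0.916) and CG14671 (0.912), for Ppn Cyp6v1 (0.940), CG6310 (0.936) and CG5854 (0.910), and for Ndg the chaperonin subunit genes CCT1 (0.914), CCT2 (0.912) and CCT4 (0.907). LanB1 was nearest to LanB2 (0.994), LanA (0.982) and the antisense RNA asRNA:CR45140 (0.954), and LanB2 to LanB1 (0.994), LanA (0.994) and Galk (0.967). Between members, r of Ndg with each of the others lay between -0.25 and 0.08, and r of trol with Col4a1 was 0.17.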

How the data were processed

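UMI counts of whole embryos were used as the authors deposited them, with no normalization: per the labels and the methods, Cell Ranger 3.1.0 aligned reads to BDGP6, counted UMIs per gene and merged the libraries with its aggregate function. Whether that step equalised depth is not stated. UMIs of suffixes n and n+4 were summed per barcode, and cells with at least 200 genes and under 20% mt: UMIs were kept. From up to 100 seed cells per marker list, cells were assigned by multinomial likelihood over 5 rounds (margin 10), without the 10 genes, the matrix list and mt: genes. The groups grown from wrapper, Eaat2 and CG4797 seeds then met 0 of 3, 1 of 3 and 0 of 4 check markers. Those grown from Hand, alrm, DAT and moody seeds met 5 of 6, 3 of 3, 5 of 5 and 3 of 4. All glia and the Hand cells were gated as described, a choice made after the data were seen. Cells grown from Eaat2 seeds, which met all 5 neuronal check markers, joined the neuron-like class. Ratios had 0.5 UMI added to each sum, so a feature with few or no UMIs in a small class could pass 2-fold. Doublets were not called. Exact Poisson intervals of levels and exact conditional binomial intervals of ratios were computed with scipy 1.17.1, and class assignment and ratios were tested on simulated data.

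The 10 genes and all lists were chosen with earlier results of these data known. Named were the 10 genes in each class, per class the 3 genes of the matrix list with the largest log2 ratio among those with at least 100 UMIs, and the 3 features most like each gene. Library totals were 26261446 to 36130722 UMIs. The closing section gives the effect of the alternatives tried.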

Additional observations from a re-analysis of the deposited data

Results flagged for a closer look

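In each class, the highest and the lowest library pair were compared with the other 3, and a value was listed when its gap to the nearest of them took up more of the whole range than Dixon's test allows at the 95% level. Of 98 sets of 4 values with at least 100 UMIs, 16 were listed. Chance alone lists about 1 in 20. No value was tied to a sample.

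Library pair 1 accounted for 9 of them. In hemocyte-like cells it was the low value for Col4a1 (19271 CPM, the others 30706 to 31303), vkg (7749 CPM, the others 12400 to 13050) and trol (1732 CPM, the others 3053 to 3140). In fat body-like cells it was low for Col4a1 (3748 CPM, the others 8283 to 8761), vkg (1647 CPM, 3351 to 3534), trol (934 CPM, 1703 to 1733), SPARC (3898 CPM, 6068 to 6468) and Ndg (16.0 CPM, 40.6 to 44.1). It was the high value for LanB1 in astrocyte-like cells (482 CPM, the others 119 to 170), where it held 32 cells.

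Library pair 2 was low for LanA in peripheral glia-like (155 CPM, the others 196 to 200) and epidermis-like cells (77.7 CPM, 143 to 154), for Ppn in epidermis-like cells (38.9 CPM, 78.7 to 80.9) and for Pxn in peripheral glia-like cells (3.85 CPM, 24.1 to 27.6). Library pair 3 was high for trol in astrocyte-like cells (907 CPM, 499 to 517) and for LanA in hemocyte-like cells (5655 CPM, 5550 to 5564), and library pair 4 for Pxn in fat body-like cells (14.6 CPM, 10.3 to 10.6).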

How the results depend on the processing

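No paired analysis was possible because all libraries belong to 1 group. Of 782 recomputed log2 ratios (46 values under 17 alternatives), 575 moved by less than 1 SD over the library pairs, 202 by more and 5 changed sign. The counts for hemocyte-like (9 of 10 over either reference), fat body-like (0 and 8), epidermis-like, astrocyte-like, neuron-like and Eaat2 and repo cells (0), muscle-like over all other (1) and Hand-positive over neuron-like cells (5) stayed within 1.5 times under these alternatives, and leaving out any 1 library pair moved none past it. Over all other kept cells, with gate genes alone the count went from 1 to 2 in Hand-positive, from 1 to 0 in wrapper and repo, from 0 to 9 in subperineurial-like and from 0 to 1 in peripheral glia-like cells, and without cells over 3000 genes, or with every cell weighing the same, from 1 to 2 in Hand-positive cells. With the whole-profile groups, chosen first, it was 0 in the group grown from Hand seeds (5 of 6 check markers). It was 0 in the group from CG4797 seeds (0 of 4) and 1 in that from DAT seeds (5 of 5). The shares of all features under these alternatives are not given. Over neuron-like cells, the muscle-like count of 5 became 10 with gate genes alone and 3 with the whole-profile groups. In the latter, trol had a log2 ratio of -2.51 over all other cells and -0.022 over neuron-like cells in the group grown from CG4797 seeds, which cuticle genes led. It had -0.24 over neuron-like cells in the group grown from alrm seeds, which met 3 of 3 check markers. Ndg in fat body-like over neuron-like cells had -0.38 with gate genes alone and -0.37 with 1 round of assignment. The causes were not tested. Without a minimum of UMIs, 1946 of 15266 features (12.7%) were 2-fold higher in hemocyte-like than in all other cells, against 955 with it, and the 10 genes were unaffected. Alternatives without hemocyte-marked cells, with 1 round, with suffixes 5 to 8 and with whole-profile groups were chosen after seeing the data. Perineurial-like values rest on 43 cells, and all intervals cover counting error only.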

Other observations

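Some whole-profile groups that were not used as classes also held these mRNAs. Cells of these groups that met a glia or Hand gate were counted in the gated classes as well. In 240 cells grown from Cubn seeds and led by the transporter gene Oatp58Da, LanA stood at 453 CPM, LanB1 at 464 CPM and LanB2 at 420 CPM, while Col4a1 stood at 108 CPM and SPARC at 67.8 CPM, so that all 3 laminin chains were at or above their muscle-like level where Col4a1 and SPARC were below the level of the barcodes with under 200 genes (247 and 108 CPM). In 673 midgut-seeded cells, led by peptidase and other gut genes such as etaTry, trol stood at 507 CPM and Col4a1 at 141 CPM.

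A group of 1527 cells grown from twi seeds was led by the mesodermal genes btn and tin among others. There trol stood at 1165, 2541, 2674 and 2388 CPM in the 4 library pairs, again lowest in pair 1. Ndg stood at 334, 263, 352 and 392 CPM. Pooled, Col4a1 stood at 1079, vkg at 428, LanA at 544, LanB1 at 662 and LanB2 at 391 CPM. SPARC stood at 1065, Ppn at 519 and Pxn at 36.7 CPM. These pooled levels lay above those of every class except hemocyte-like and fat body-like cells. Ppn and Pxn lay above fat body-like cells as well. The part of free RNA or joined cells in these levels was not tested. In 281 cells grown from seeds with sage, a salivary gland gene, Ndg stood at 433 CPM and Ppn at 434 CPM, although a neuronal check marker was also raised there.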
